A study of Mus musculus with 9 samples.

Results

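The nuclear factor I (NFI) family was described here through its 4 genes in the mouse, Nfia, Nfib, Nfic and Nfix. The members were chosen by name, and all 4 were found among the 55704 genes with deposited values. RNA was measured in 9 libraries of neural stem cells (NSCs) in 3 groups of 3. The cells came from the subventricular zone of adult C57BL/6 mice aged 8 to 9 weeks, with 2 female and 2 male mice pooled for an isolation, and were grown for at least 3 passages with the growth factors bFGF and EGF at 20 ng/mL each. The bFGF/EGF group was taken at day 0 in this proliferation medium. After 16 to 18 h of adherent culture, the bFGF/BMP4 group received bFGF and BMP4 at 20 ng/mL each for 6 days, and the BMP4 group received BMP4 alone at 20 ng/mL for 6 days. All groups thus shared the strain, the wild-type genotype and the expansion in bFGF and EGF. The labels do not say whether the libraries of a group came from separate isolations, so p-values measure only the spread between these libraries, and the time in culture cannot be told apart from the change of factors in comparisons with bFGF/EGF.

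NFI proteins are transcription factors that bind DNA as dimers, at a palindrome built from TTGGC and its reverse complement, through a conserved domain at the amino end, while their carboxyl ends differ and can activate or repress transcription. In the developing nervous system Nfia and Nfib are known for the onset of glial fates, and Nfix has been linked to quiescence of neural stem cells. Nfic is best known for its role in tooth root formation.

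The 4 genes share enough sequence to ask whether reads could be confused between them. Each has a coding exon of 532 bases, in which 351 bases were identical in all 4 in the reference genome (GRCm39) with the GENCODE vM39 annotation. Between pairs the identity in this exon ran from 75.8% for Nfia and Nfic to 82.0% for Nfic and Nfix. The longest coding run shared by any pair was 32 bases, between Nfic and Nfix. Over all annotated transcripts of the members, 3 runs of 30 bases were shared, between Nfic and Nfix. No run of 50, 100 or 150 bases was shared by any members. Reads themselves were not examined. A stretch of 90 bases of this exon is shown for each member because it holds that run and shows how often the members differ. The stretches lie at chr4:97671370-97671459 on the plus strand (Nfia) and, on the minus strand, at chr4:82416866-82416955 (Nfib), chr10:81256492-81256581 (Nfic) and chr8:85498804-85498893 (Nfix), and are written 5′ to 3′ along the gene. Capitals mark the positions that are not identical in all 4 genes, and 67 of the 90 bases were identical.
Nfia: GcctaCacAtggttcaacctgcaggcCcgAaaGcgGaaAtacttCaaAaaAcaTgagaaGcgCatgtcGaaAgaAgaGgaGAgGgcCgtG
Nfib: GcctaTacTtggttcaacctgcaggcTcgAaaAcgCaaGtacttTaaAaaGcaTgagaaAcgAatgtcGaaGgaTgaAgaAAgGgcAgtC
Nfic: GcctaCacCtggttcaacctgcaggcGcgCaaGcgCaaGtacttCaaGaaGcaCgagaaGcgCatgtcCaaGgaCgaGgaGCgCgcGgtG
Nfix: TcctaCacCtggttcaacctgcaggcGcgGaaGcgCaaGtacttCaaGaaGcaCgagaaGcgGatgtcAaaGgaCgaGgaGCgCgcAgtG

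The genes lie at chr4:97660971-98007111 on the plus strand (Nfia, ENSMUSG00000028565) and, on the minus strand, at chr4:82208410-82623987 (Nfib, ENSMUSG00000008575), chr10:81232020-81291469 (Nfic, ENSMUSG00000055053) and chr8:85426505-85527046 (Nfix, ENSMUSG00000001911). On the opposite strand Nfix shares 344 exon bases with Trmt1, a tRNA methyltransferase gene, 229 with Lyl1 and 137 with G430095P16Rik. Trmt1 was at a mean FPKM (fragments on a gene relative to its length and to the depth of the library) of 10.2 with bFGF/EGF. It was at 8.50 with bFGF/BMP4 and 6.21 with BMP4 alone, so its order was the reverse of that of Nfix. Lyl1, at means of 0.106, 0.358 and 0.644, and G430095P16Rik, at 0.0816, 0.369 and 0.511, had the same order as Nfix at low levels. Nfic shares 174 exon bases with Gm16104, which had a mean FPKM of at most 0.572, and 532 with Gm53593, which was not analysed here. Nfia shares 4 with E130114P18Rik. Whether fragments were assigned by strand is not given in the sources used here, so fragments in these overlaps are uncertain.

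Libraries held 15892854 to 17419822 fragments on genes. The members were well covered, from 618 fragments for Nfic in BMP4 replicate 2 to 9134 for Nfix in the BMP4 group. The log2 values of libraries correlated at 0.956 to 0.974 within groups and at most 0.884 between groups. In 2 libraries the longest tertile of protein-coding genes was low relative to the shortest when set against the other libraries of the group, with a log2 difference of -0.514 in BMP4 replicate 2 and -0.325 in bFGF/EGF replicate 2. All 4 members belong to the longest tertile, above 6072 bases. Sox2, a stem cell marker, was at a mean FPKM of 167 in the bFGF/EGF group and 137 in each 6-day group, while Nes, another, was at 151 with bFGF/EGF, 3.55 with bFGF/BMP4 and 15.8 with BMP4 alone. The other 3 stem cell markers were highest with BMP4 alone, at means of 677, 167 and 892 (Vim), 11.9, 15.2 and 35.0 (Msi1) and 0.660, 0.151 and 2.49 (Prom1) in that order of groups. The summed astrocyte markers, which include Gfap, Aqp4 and Sox9, were read in the same order of groups. They ran from 161 to 224, 512 to 550 and 3320 to 4190 FPKM. Gfap and Aqp4 made up most of the last of these, with means of 2566 and 778 FPKM. In the bFGF/EGF and bFGF/BMP4 groups Gfap was at means of 0.0926 and 19.4 FPKM, and Aqp4 at 0.527 and 212. The sum without these genes was not computed, so it does not show how the remaining astrocyte markers changed. The 5 microglia markers summed to at most 1.74. In these bulk libraries fewer cells of a type and less RNA per cell cannot be told apart.

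Nfix was the most abundant member in all 9 libraries and was about 2-fold higher in both 6-day groups. Nfix had 33.0, 30.9 and 25.2 FPKM in bFGF/EGF replicates 1, 2 and 3. It had 64.9, 59.8 and 62.2 FPKM in the bFGF/BMP4 replicates and 76.5, 51.5 and 74.3 FPKM in the BMP4 replicates. Every library of the 6-day groups was above every bFGF/EGF library, while the groups taken at 6 days overlapped with each other. The group means were 29.7 ± 4.06, 62.3 ± 2.58 and 67.4 ± 13.9 FPKM (SD, n = 3 each), which placed Nfix above 87.7%, 95.2% and 95.5% of 13787 protein-coding genes. Nfix rose by a log2 fold change of 1.07 (SE 0.17) in bFGF/BMP4 against bFGF/EGF and of 1.17 (SE 0.17) in BMP4 against bFGF/EGF, with limma adjusted p = 0.00045 and 0.0002. Both changes were past the study's threshold of 2-fold, but in bFGF/BMP4 against bFGF/EGF the value was 0.96 without bFGF/EGF replicate 3 and 0.96 on the recovered fragment numbers with limma-voom. The 6-day groups differed by 0.09 (95% interval -0.28 to 0.46, adjusted p = 0.76). BMP4 replicate 2, the library in which long genes were low, was 0.55 below the other 2 BMP4 libraries on the log2 scale, and the part of gene length in this was not tested.

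**Figure D1:**
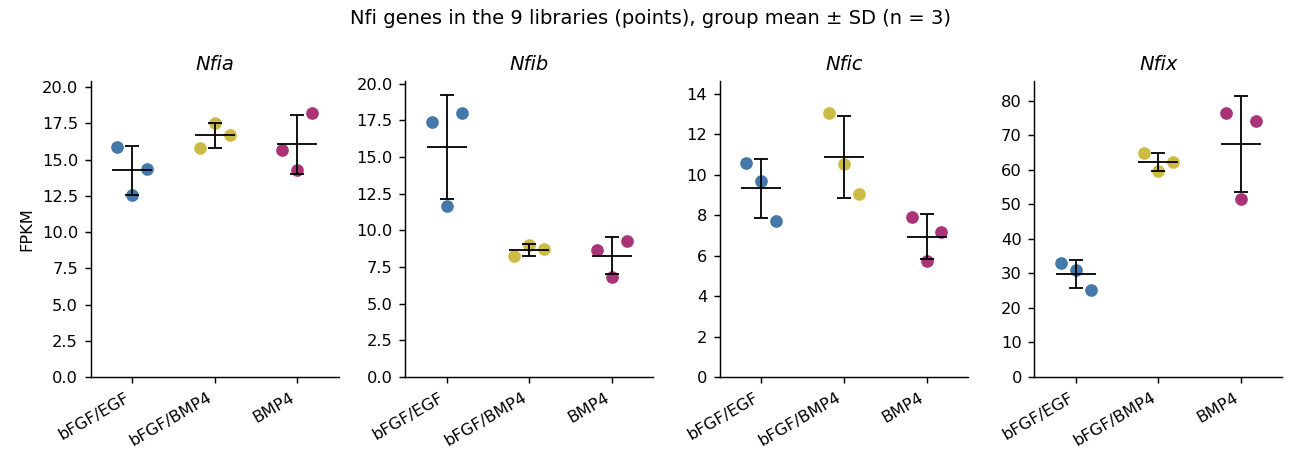
Level of each Nfi gene in FPKM (vertical axis, linear, from 0, a separate scale for each gene) in the 3 libraries of each group (points, replicates 1 to 3 from left to right), with the group mean and SD (horizontal bar and whiskers). Nfix sits between 25.2 and 33.0 in bFGF/EGF and between 51.5 and 76.5 in the other groups, while Nfib is above 11 only in bFGF/EGF.

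Nfib moved the other way. Its FPKM was 17.4, 11.6 and 18.0 in bFGF/EGF replicates 1 to 3, 8.25, 9.01 and 8.72 in bFGF/BMP4, and 8.65, 6.85 and 9.29 in BMP4. All bFGF/EGF libraries were above all 6-day libraries, with replicate 2 the lowest of its group, and the 6-day groups overlapped. The means were 15.7 ± 3.52, 8.66 ± 0.382 and 8.26 ± 1.26 FPKM (SD, n = 3 each), and Nfib went from being above 75.7% of protein-coding genes in bFGF/EGF to above 62.1% in bFGF/BMP4 and 60.7% in BMP4. Nfib fell by 0.82 on the log2 scale (SE 0.18, limma adjusted p = 0.0038) in bFGF/BMP4 and by 0.90 (SE 0.18, adjusted p = 0.0019) in BMP4 against bFGF/EGF. Neither fall reached 2-fold with all libraries in this fit, but without bFGF/EGF replicate 2, a library in which long genes were low, the values were -1.02 and -1.10. The 6-day groups differed by -0.08 (95% interval -0.48 to 0.33, adjusted p = 0.82), and without BMP4 replicate 2 it was 0.05.

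Nfic was the least abundant member in bFGF/EGF and in BMP4, and its highest mean was in bFGF/BMP4. Its FPKM was 10.6, 9.69 and 7.72 in bFGF/EGF replicates 1 to 3, 13.1, 10.5 and 9.03 in bFGF/BMP4, and 7.90, 5.76 and 7.16 in BMP4. The BMP4 libraries were all below the bFGF/BMP4 libraries, whereas bFGF/EGF overlapped with both. Nfic was lower in BMP4 than in bFGF/BMP4 by a log2 fold change of -0.64 (SE 0.18, limma adjusted p = 0.033). This call was lost without bFGF/BMP4 replicate 1 (adjusted p = 0.11), bFGF/BMP4 replicate 2 (0.081), BMP4 replicate 2 (0.1) or BMP4 replicate 3 (0.069), with values from -0.50 to -0.66. Against bFGF/EGF the values were 0.21 (95% interval -0.19 to 0.62, adjusted p = 0.36) in bFGF/BMP4 and -0.42 (-0.83 to -0.01, adjusted p = 0.075) in BMP4. The latter passed the threshold with limma-voom on fragment numbers (-0.52, adjusted p = 0.023) and without bFGF/EGF replicate 3 (-0.55, adjusted p = 0.037).

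Nfia had the narrowest range over groups. Its FPKM was 15.9, 12.5 and 14.4 in bFGF/EGF replicates 1 to 3, 15.8, 17.5 and 16.7 in bFGF/BMP4, and 15.7, 14.3 and 18.2 in BMP4. The 3 groups overlapped in every comparison. Its log2 fold change was 0.23 (95% interval -0.06 to 0.52, limma adjusted p = 0.17) in bFGF/BMP4 and 0.17 (-0.12 to 0.46, adjusted p = 0.3) in BMP4 against bFGF/EGF, and -0.06 (-0.35 to 0.23, adjusted p = 0.8) between the 6-day groups. These intervals left out a 2-fold change in either direction.

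With a 2-fold change added to the threshold, Nfix alone was called in both comparisons with bFGF/EGF, where 30.6% (bFGF/BMP4) and 36.6% (BMP4) of genes were, and no member between the 6-day groups, where 13.5% were. Without it, 2 of the 4 members were called in bFGF/BMP4 against bFGF/EGF (Nfix higher and Nfib lower), where limma called 48.6% of the 20207 genes tested. The same 2 were called in BMP4 against bFGF/EGF, where 54.9% of genes were called, and these comparisons share the bFGF/EGF libraries. In BMP4 against bFGF/BMP4, Nfic was called, beside 21.1% of all genes. Groups did not overlap for Nfix and Nfib in the comparisons with bFGF/EGF, which was also so for 57.7% of genes in bFGF/BMP4 and 60.4% in BMP4, nor for Nfic between the 6-day groups, where it was so for 38.7%.

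**Figure D2:**
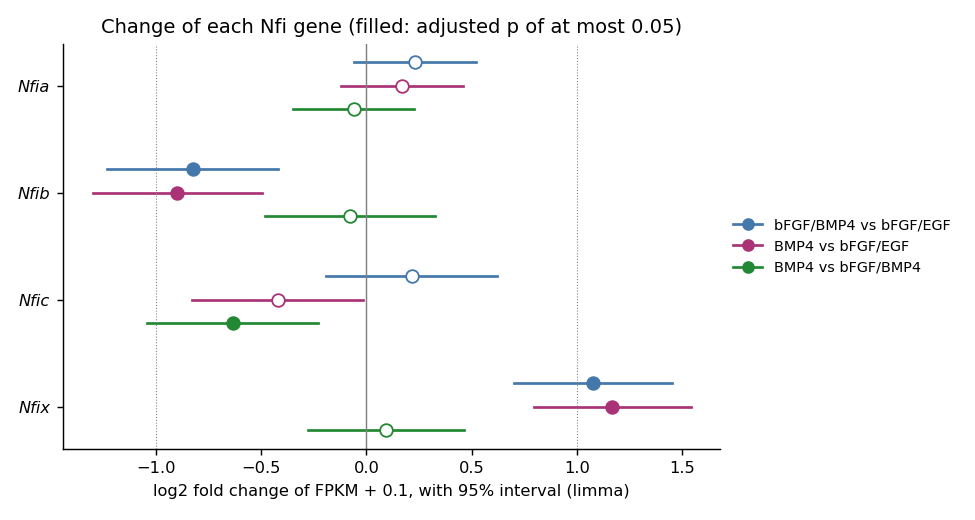
Log2 fold change of each Nfi gene on the scale of log2(FPKM + 0.1) (horizontal axis) with its 95% interval from limma (lines), for the 3 comparisons (colours). Filled points passed an adjusted p of 0.05 and dotted lines mark a 2-fold change, which only the 2 filled points of Nfix exceed.

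The balance between the members was read from their FPKM, which is a level per length. Nfix made up 43.1 ± 4.6% of the summed FPKM of the 4 genes with bFGF/EGF, 63.2 ± 1.4% with bFGF/BMP4 and 68.1 ± 2.3% with BMP4 alone (SD, n = 3 each). The share of Nfib was 22.7 ± 4.8%, 8.81 ± 0.64% and 8.41 ± 0.41% in the same order, and that of Nfic 13.5 ± 1.6%, 11.0 ± 1.7% and 7.06 ± 0.43%. Nfia held 20.7 ± 1.3%, 17.0 ± 1.3% and 16.4 ± 1.9%. In bFGF/EGF, Nfia and Nfib changed places between libraries behind Nfix. In the 6-day groups the order was Nfix, Nfia, Nfic and Nfib in all bFGF/BMP4 libraries, and Nfix, Nfia, Nfib and Nfic in all BMP4 libraries.

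The summed FPKM of the family was 76.9, 64.7 and 65.3 in bFGF/EGF replicates 1 to 3, 102, 96.8 and 96.6 in bFGF/BMP4, and 109, 78.3 and 109 in BMP4. All 6-day libraries were above all bFGF/EGF libraries, by a log2 difference of 0.52 in bFGF/BMP4 and 0.51 in BMP4, each with p = 0.1 in a two-sided exact permutation test, the smallest p that 3 libraries against 3 allow. For BMP4 the separation depended on the scaling: the groups overlapped on the TPM scale (0.42, exact permutation p = 0.3), with median ratios (0.46, p = 0.2) and with libraries scaled to their own fragments (0.41, p = 0.2). The sum differed by -0.01 between BMP4 and bFGF/BMP4 (exact permutation p = 1).

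Whether members changed unequally was tested on the log2 ratio of 2 members within each library. This ratio does not depend on a scale factor of the whole library. The members differ in length, however, so the difference in long genes between libraries can enter it. The ratios were not tested with the length trend removed. Over the 6 pairs and 3 comparisons, 18 exact permutation tests were run, and none can fall below p = 0.1. The smallest adjusted p of these permutation tests was 0.14 here. The ratio of Nfib to Nfix was 3.75-fold lower in bFGF/BMP4 and 4.23-fold lower in BMP4 than in bFGF/EGF, with no overlap between groups (exact permutation p = 0.1 each). The ratio of Nfic to Nfix was 1.82-fold lower in bFGF/BMP4 and 3.02-fold lower in BMP4 than in bFGF/EGF (exact permutation p = 0.1 each). In BMP4 against bFGF/BMP4 the ratio of Nfic to each other member was 1.48- to 1.67-fold lower (exact permutation p = 0.1 each), while that of Nfia to Nfib differed by 0.02 on the log2 scale (exact permutation p = 0.7).

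**Figure D3:**
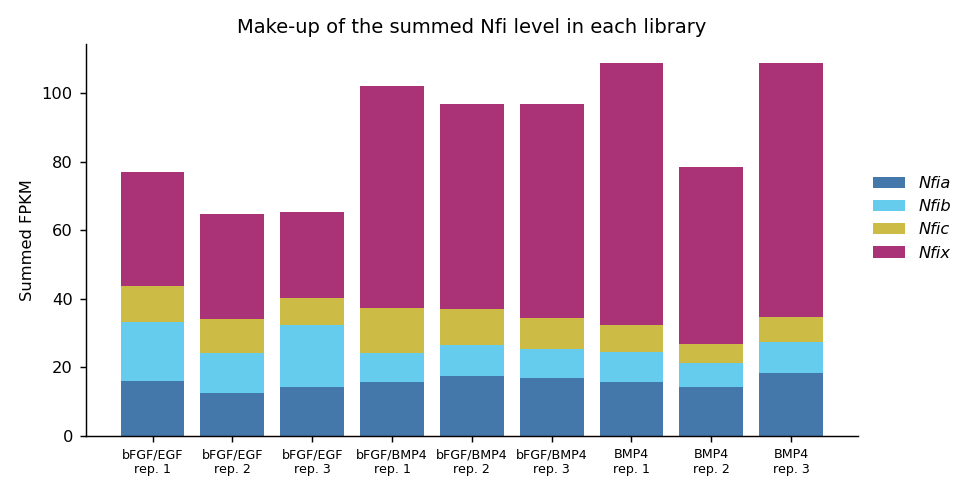
Summed FPKM of the 4 Nfi genes (vertical axis, linear, from 0) in each of the 9 libraries (bars), split by gene (colours). Nfix takes between 38.6% and 47.7% of the bar in bFGF/EGF libraries and between 61.7% and 70.4% in the other libraries.

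Genes that followed each member were sought among 7458 protein-coding genes whose mean FPKM was 5 or more, by Pearson's r of log2(FPKM + 0.1) over the 9 libraries, which share their groups and the difference in long genes. The nearest to Nfix were Mon1b (r = 0.987), Mboat2 (0.986), which encodes a lysophospholipid acyltransferase, and Clec16a (0.984). For Nfib they were Rfx7 (0.991), a transcription factor gene, Ttc3 (0.988) and Cep170 (0.985), which encodes a centrosomal protein. For Nfic they were Zfp516 (0.963), Epc1 (0.927) and Emx2 (0.919), a homeobox gene. For Nfia they were Luzp1 (0.942), Cyb5d1 (0.915) and Trappc8 (0.892). Mboat2 went from a mean FPKM of 7.74 in bFGF/EGF to 19.1 in bFGF/BMP4 and 19.6 in BMP4, whereas Ttc3 went from 39.3 to 21.7 and 22.3.

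A list of 18 genes reported in the literature as NFI targets was read beside the members, of which 16 were tested. It holds genes reported as activated and as repressed. The list was chosen with earlier results of these data known, so its counts and medians beside all genes are descriptive only. In bFGF/BMP4 against bFGF/EGF, 8 were higher and 3 lower, beside 25.0% and 23.6% of all genes, and the median log2 fold change of the list was 0.65 against 0.06 over all genes tested. In BMP4 against bFGF/EGF, 9 were higher and 2 lower, beside 29.6% and 25.3% of all genes, with medians of 0.56 and 0.10. In BMP4 against bFGF/BMP4, 6 were higher and 3 lower, beside 12.2% and 8.89%, with medians of 0.36 and 0.00. Gfap, Aqp4 and Slc1a3 are also astrocyte genes. Gfap and Aqp4 are themselves in the astrocyte marker sum given above, so that sum is no separate reading of them. Slc1a3 is not in the sum, and its means were 73.6 (bFGF/EGF), 130 (bFGF/BMP4) and 113 FPKM (BMP4). The part of astrocyte genes in the counts was not tested.

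Gfap, an intermediate filament gene of astrocytes and adult neural stem cells, was at 0.0600 to 0.134 FPKM in the bFGF/EGF libraries, 16.8 to 21.6 with bFGF/BMP4 and 2181 to 3038 with BMP4 alone. Its log2 fold change was 6.67 (SE 0.17) in bFGF/BMP4 and 13.71 (SE 0.17) in BMP4 against bFGF/EGF, and 7.03 between the 6-day groups. Aqp4, a water channel gene, went from 0.381 to 0.680 FPKM in bFGF/EGF to 192 to 239 in bFGF/BMP4 and 700 to 830 in BMP4. In both genes the 3 groups were separate and BMP4 was the highest.

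Mmd2 rose from 2.95 to 3.42 FPKM in bFGF/EGF to 74.3 to 78.7 in bFGF/BMP4 and 114 to 117 in BMP4, by 4.57 (SE 0.10) and 5.17 (SE 0.10) on the log2 scale. Sparcl1, which encodes a secreted matrix protein of astrocytes, had 35.2 to 44.0, 1194 to 1558 and 1033 to 1128 FPKM, and its 6-day groups differed by -0.31 (adjusted p = 0.22). Cntn2, a neuronal adhesion gene, was called higher in BMP4 against both other groups, at a mean of 0.717 FPKM against 0.141 in bFGF/EGF and 0.104 in bFGF/BMP4. Fabp7, a fatty acid binding protein gene of radial glia, was lower in bFGF/BMP4 than in bFGF/EGF (272 ± 28.4 against 655 ± 59.3 FPKM, SD, n = 3 each). With BMP4 alone it was at 484 ± 100 FPKM. This was called higher than bFGF/BMP4 (0.81, limma adjusted p = 0.012) and was not called against bFGF/EGF (-0.45, limma adjusted p = 0.068).

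Hes1, Ezh2 and Bbx are listed as genes that NFI proteins repress. Ezh2, the catalytic subunit of a histone methyltransferase complex, fell 3.13-fold in bFGF/BMP4 and 5.08-fold in BMP4 against bFGF/EGF. Hes1, a repressor downstream of Notch, was called lower in BMP4 against bFGF/EGF at -1.97 (SE 0.46). Bbx was not called in any comparison, with values between -0.21 and 0.53. Gabra6 was listed at 0 in every library and Insc was at or below 6 fragments, and neither was tested.

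**Figure D4:**
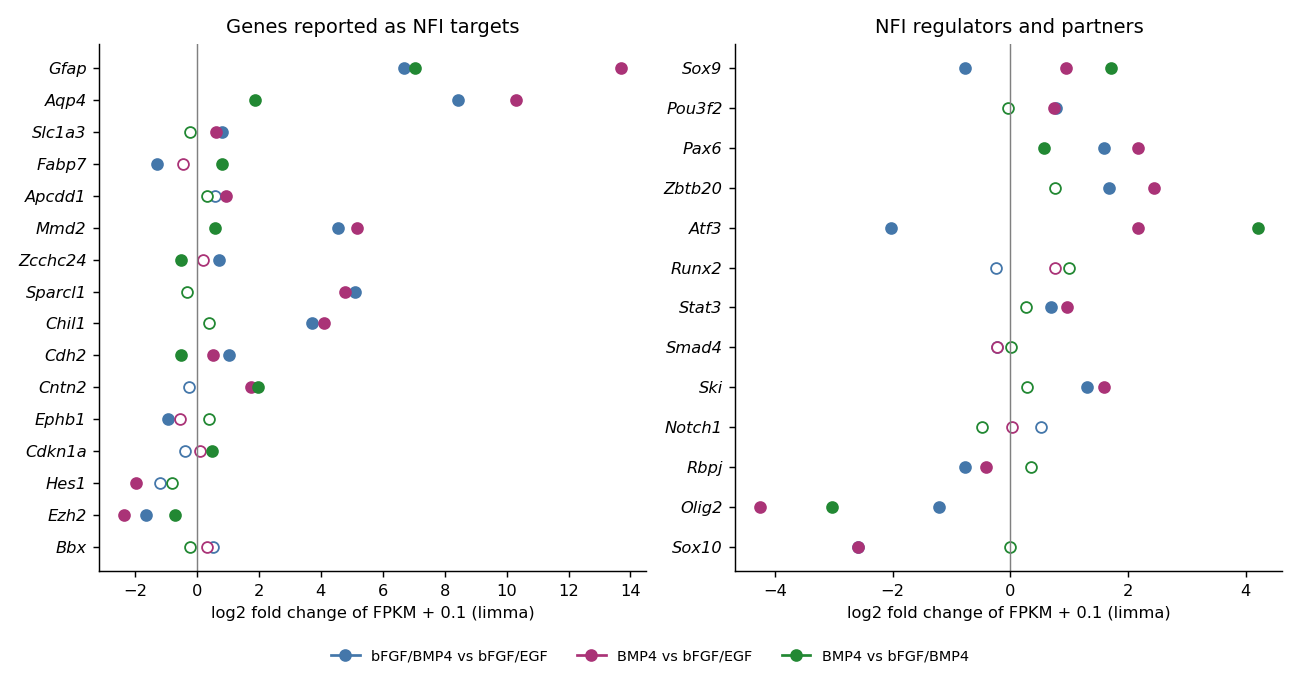
Log2 fold change of FPKM + 0.1 (horizontal axes, a separate scale for each panel) of the 16 tested genes reported as NFI targets (left) and of 13 regulators and partners (right) in the 3 comparisons (colours), with filled points for an adjusted p of at most 0.05. Gfap and Aqp4 lie farthest to the right in the left panel and Olig2 farthest to the left in the right panel, and the position of Sox10, at 0 in the 6-day groups, depends on the added 0.1.

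The list of regulators and partners held 13 genes, all of which were tested, and was likewise chosen with earlier results known. In bFGF/BMP4 against bFGF/EGF, 5 were higher and 5 lower, beside 25.0% and 23.6% of all genes, with a median of -0.23 (all genes 0.06). In BMP4 against bFGF/EGF, 7 were higher and 3 lower, beside 29.6% and 25.3%, with a median of 0.75 (all genes 0.10). Between the 6-day groups 3 were higher and 1 lower, beside 12.2% and 8.89%, with a median of 0.29 (all genes 0.00). Sox9, a factor known to induce Nfia in the embryonic spinal cord, had 32.7 to 48.3 FPKM in the bFGF/EGF libraries, 20.0 to 30.1 with bFGF/BMP4 and 62.9 to 94.3 with BMP4 alone. It was called in opposite directions against bFGF/EGF, at -0.77 (SE 0.21) in bFGF/BMP4 and 0.95 (SE 0.21) in BMP4, while Nfia was not called in either.

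Zbtb20, which encodes a zinc finger repressor, was higher by 1.68 (SE 0.31) in bFGF/BMP4 and 2.44 (SE 0.31) in BMP4 than in bFGF/EGF. Pax6, a homeobox gene of neural stem cells, was higher by 1.60 and 2.16, and Ski, a corepressor of SMAD signalling, by 1.31 and 1.59. Atf3, a stress-induced factor gene, had 0.846 to 1.66 FPKM in the bFGF/EGF libraries, 0.182 to 0.316 with bFGF/BMP4 and 5.52 to 6.95 with BMP4 alone, so bFGF/BMP4 was the lowest and BMP4 the highest group. Olig2, a factor of the oligodendrocyte lineage, had 445 to 654, 195 to 323 and 20.3 to 50.3 FPKM and was called lower in each step of that order. Sox10, another factor of that lineage, had 2 to 11 fragments in bFGF/EGF libraries and none in the others. Set against a floor of 3 fragments per library, this is at least 2.57-fold lower than the bFGF/EGF mean. The bound does not hold for bFGF/EGF replicate 1, which at 2 fragments was itself below the floor.

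The motif TTGGC, 1 arm of the palindrome that NFI dimers bind, was sought on both strands of the 250 bases before each RefSeq transcript start. TTGGC was found in 41.5% of 32851 windows of all genes and TTGGCA, which contains it, in 12.3%. The full palindrome, with 5 bases between its arms, was found in 12 of these windows. It was in 0 of the windows given for the members and listed genes, and not all of these genes had a window. RefSeq windows (GRCm38.p6) were given for 3 of the 4 members, and they were placed on GRCm39 by a single exact match. The windows of Nfia and Nfic held no TTGGC. The Nfia window (chr4:97469930-97470179) lies before the gene as placed above and outside it, and the Nfic window (chr10:81263008-81263257) lies within the gene. Their lack of TTGGC therefore does not describe the sequence before the annotated gene starts. Of 4 Nfix windows 2 held TTGGC, 1 starting 175 bases and the other 5 bases before the start. Counted by gene rather than by window, 9 of 12 genes reported as targets with a window held TTGGC, and 3 of 10 regulators and partners. For TTGGCA these counts were 4 of 12 and 1 of 10. No share by gene over all genes was computed, so these counts cannot be set against the shares by window. The 2 Nfix windows are shown because Nfix was the member that rose, at chr8:85502458-85502707 and chr8:85499505-85499754, both on the minus strand, within the gene and outside annotated exons. Capitals mark TTGGC or its reverse complement, and a match describes these letters only.
Nfix window 1: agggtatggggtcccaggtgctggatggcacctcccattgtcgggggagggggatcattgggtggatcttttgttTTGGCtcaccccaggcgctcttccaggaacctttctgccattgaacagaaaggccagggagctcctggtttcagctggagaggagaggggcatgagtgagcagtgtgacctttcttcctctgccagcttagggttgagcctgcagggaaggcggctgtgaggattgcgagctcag
Nfix window 2: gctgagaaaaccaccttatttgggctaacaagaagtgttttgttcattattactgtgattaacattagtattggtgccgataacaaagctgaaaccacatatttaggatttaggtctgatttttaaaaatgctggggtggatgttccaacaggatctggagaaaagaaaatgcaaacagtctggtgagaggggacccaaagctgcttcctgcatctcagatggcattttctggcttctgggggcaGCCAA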

How the data were processed

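Per the submitters' processing notes and the study's methods, reads were cleaned with fastp 0.19.7, aligned to mm39 with HISAT2 2.0.5 and counted with featureCounts 1.5.0-p3; the annotation release and strand setting are not given in the sources used here. The authors deposited the FPKM values of each library that were used here; the raw counts in a supplementary table of the article were not used here. Whole fragments were recovered from these values for 30860 of 30860 genes above 0 (tolerance 0.02 fragments, smallest whole numbers that fit), and gave the depths. The members and gene lists were chosen with earlier results of these data known.

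The study's own test models counts. As the values used here were FPKM, limma 3.58.1 (R 4.3.3) with a trend was fitted to log2(FPKM + 0.1) of 20207 genes averaging 0.1 FPKM or more, with the 9 libraries together. P-values were adjusted by Benjamini-Hochberg over all genes tested, and a gene was called at an adjusted p of at most 0.05; the 2-fold rule is an alternative. Fold changes on this scale understate changes of low genes. Sums and ratios of members were tested with exact two-sided permutation tests (scipy 1.17.1), with adjustment over the 18 ratio tests. Other tools were Python 3.11.15, pandas 2.3.3, numpy 2.4.6 and matplotlib 3.10.9. The fit was also run on simulated data without a length trend, so that run says nothing on the difference in long genes seen here.

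Named genes were the 4 members, genes overlapping them, genes of the 2 lists (always the 3 largest called changes of each list in each comparison), and the 3 genes most like each member. NSC, astrocyte, neuron and neuroblast, oligodendrocyte lineage, ependymal, microglia, and vascular and mural marker sums were computed. With the bFGF/EGF group first, bFGF/BMP4 next and BMP4 last, the neuron and neuroblast sum was at most 74.2, 35.7 and 45.5 FPKM, the oligodendrocyte lineage sum 17.2, 11.0 and 30.7, the ependymal sum 12.6, 11.7 and 69.9, and the vascular and mural sum 0.0829, 1.11 and 1.73; the NSC sum ran from 918 to 1090, 306 to 342 and 964 to 1230. Other settings tried were an added 1 in place of 0.1, a filter at a mean of 1 FPKM or none, quantile normalization, scaling to TPM or by median ratios, limma-voom on fragments, a replicate block, only the groups compared, and each library left out. After seeing the data, removal of each library's length trend and scaling to its own fragments were added.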

Additional observations from a re-analysis of the deposited data

How the results depend on the processing

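Nfix and Nfib were called in both comparisons with bFGF/EGF under each of the alternatives run, with adjusted p between 2.4e-05 and 0.018, except that at a fold of at least 2 the falls of Nfib (-0.82 and -0.90) no longer passed. Nfix ran from 0.96 to 1.17 in bFGF/BMP4 and from 1.05 to 1.35 in BMP4. Nfib ran from -1.05 to -0.71 in bFGF/BMP4, past 2-fold with the length trend removed (-1.05) and without bFGF/EGF replicate 2, and from -1.10 to -0.77 in BMP4, past it with limma-voom (-1.01) and without that library. The family sum in BMP4 against bFGF/EGF ran from 0.41 to 0.66, with exact permutation p from 0.1 to 0.3. For Nfic in BMP4 against bFGF/EGF, the value passed the threshold with limma-voom on fragment numbers (-0.52), with the replicate block (-0.42) and with libraries scaled to their own fragments (-0.52), and it ran from -0.55 to -0.29 with 1 library left out. For Nfic in BMP4 against bFGF/BMP4, -0.64 did not pass the 2-fold rule, and leaving out 1 library gave -0.76 to -0.50. Between the 6-day groups, values near 0 changed sign: without the length trend Nfia was 0.0334 and Nfib 0.0648, the family sum scaled to own fragments was 0.00745, and with 1 library left out Nfia ran from -0.155 to 0.0208, Nfib from -0.167 to 0.0496, Nfix from -0.00998 to 0.276, the sum from -0.0934 to 0.145 and the Nfia to Nfib ratio from -0.0292 to 0.0704. The Nfia to Nfic ratio in bFGF/BMP4 against bFGF/EGF ran from -0.11 to 0.19. At a fold of at least 2, called regulators and partners were 6 instead of 10 in each comparison with bFGF/EGF (all genes 30.6% instead of 48.6% in bFGF/BMP4 and 36.6% instead of 54.9% in BMP4), and called targets were 3 instead of 9 between the 6-day groups (all genes 13.5% instead of 21.1%). Except where an alternative itself drops samples or raises the threshold, the cause was not tested. Scaling libraries to their own fragments moved the median of genes averaging 1 FPKM or more from 0.01 to -0.11 in bFGF/BMP4 against bFGF/EGF. Deviations of same-numbered replicates correlated at -0.21 to 0.22 and those of differently numbered ones at -0.25 to 0.19. Such weak values cannot decide whether the numbers pair the libraries. The replicate block changed no other call of a member. Exact tests with 3 against 3 libraries cannot reach 0.05, so they say nothing on stability.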
